A study of Arabidopsis thaliana with 8 samples.

Results

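The nuclear genes of the light-harvesting antennae and photosystems were followed in shoot and root of Arabidopsis thaliana. They are 40 genes given by their locus identifiers, 40 of the 33199 in the deposited table, and all of them were found there. The members were set by identifier and not by a rule on the measured levels, but with earlier results of these data known. Messenger RNA of Col-0, the reference accession, was sequenced from 4 shoot and 4 root samples. No mutation or other treatment is named for either tissue. The growth protocol attached to the samples describes another species, so the age of the plants, their medium and the harvest cannot be stated. Nothing in the labels places the 4 shoot or the 4 root samples in separate cultures. The p-values therefore reflect the spread among libraries, and that spread may be technical.

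Levels are FPKM, read pairs relative to gene length and to a library size that the authors scaled. Each mean carries its SD over the 4 libraries of a tissue. A log2 fold change compares root with shoot on log2(FPKM + 0.5), where the change of low genes is understated, and is negative where root was lower. Adjusted p-values come from limma, fitted to every gene tested. The residual root level of a gene is its root FPKM as a percent of its mean shoot FPKM. Reads assigned to genes numbered 10044638 to 11662309 per shoot library and 9857791 to 12460762 per root library. The 40 members held 13.1% to 16.9% of these reads in shoot and 0.0669% to 0.172% in root. The shoot markers are regulators of leaf polarity and stomata, GC1 of guard cells and CER6 of wax synthesis. Of 10 shoot markers, 10 were called lower in root, against 32.0% of genes tested. Of 10 root markers, 10 were called higher in root, against 37.6%. FIL, YAB5, FAMA and MUTE had 0 root reads, and the root markers PLT1, PLT2, SMB and EXPA7 had 0 shoot reads. These could pass the filter on low values, at least 0.5 FPKM in at least 4 of 8 libraries, only through the tissue where they are high. The same holds for YAB3, SPCH and TMM, under 0.5 FPKM in every root library. It also holds for PIN2, WOX5 and PRP3, under 0.5 FPKM in every shoot library.

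Photosynthetic light capture is shared between nuclear and plastid genomes. The reaction centre cores of photosystems I and II (PSI and PSII) are encoded in the plastid, while the chlorophyll-binding antenna proteins and many smaller subunits are encoded in the nucleus and imported. LHCB1, LHCB2 and LHCB3 form the trimers of light-harvesting complex II (LHCII), LHCB4 to LHCB6 link these trimers to PSII, and LHCA1 to LHCA4 form the antenna of PSI. PSBO, PSBP and PSBQ shield the oxygen-evolving manganese cluster, and plastocyanin, the Rieske protein, ferredoxin and its reductase carry electrons onwards. In leaves these genes are among the most strongly transcribed, and in roots plastids are mostly colourless.

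LHCB1 is encoded by 5 genes of similar sequence, and how their reads can be told apart bears on every LHCB1 value. LHCB1.2, LHCB1.1 and LHCB1.3 lie side by side on chromosome 1 (TAIR10, 10472280 to 10473502, 10474656 to 10475969 and 10477885 to 10479114). LHCB1.5 and LHCB1.4 are neighbours on chromosome 2 (14522524 to 14523568 and 14524607 to 14525918). The coding sequences of the chromosome 1 copies were 95.6% to 96.4% identical to each other, and the copies on chromosome 2 were 92.5% identical. The longest run of bases shared by any pair of LHCB1 transcripts was 122, shorter than the 150-base reads. The same coding stretch of 90 bases is shown for the 5 copies, with capitals where a copy differs from LHCB1.3, to show how dense the differences are.
LHCB1.3: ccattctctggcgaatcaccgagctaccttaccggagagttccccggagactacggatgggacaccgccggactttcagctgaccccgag
LHCB1.1: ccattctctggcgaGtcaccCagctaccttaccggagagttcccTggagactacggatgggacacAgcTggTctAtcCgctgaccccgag
LHCB1.2: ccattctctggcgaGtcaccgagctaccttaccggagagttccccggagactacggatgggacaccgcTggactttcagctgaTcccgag
LHCB1.4: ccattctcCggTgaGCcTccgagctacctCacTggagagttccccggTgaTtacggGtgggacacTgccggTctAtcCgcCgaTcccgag
LHCB1.5: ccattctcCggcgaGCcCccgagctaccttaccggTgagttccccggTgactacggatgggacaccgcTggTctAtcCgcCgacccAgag
These stretches are exonic and are read 5′ to 3′ on the coding strand from the RefSeq genome TAIR10.1, in which all 40 members have the coordinates of the deposited table. They lie for LHCB1.3 at chr1:10478251-10478340 (plus strand), LHCB1.1 at chr1:10475623-10475712 (minus strand), LHCB1.2 at chr1:10472977-10473066 (minus strand), LHCB1.4 at chr2:14524995-14525084 (plus strand), LHCB1.5 at chr2:14523250-14523339 (minus strand). LHCB1.2 differed from LHCB1.3 at 3 of the 90 bases, LHCB1.1 at 8, LHCB1.5 at 12 and LHCB1.4 at 16. The authors' handling of reads that fit more than 1 copy is not stated, so values of single LHCB1 copies are uncertain to that extent.

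Nuclear photosystem genes were lower in root than in shoot, at a median of 0.518% of their shoot level. Of 39 members that passed the filter on low values, 39 were called lower in root, against 32.0% of the 20314 genes tested. LHCB1.4, under 0.5 FPKM in every root library, could pass that filter only through shoot, where it is high. LHCB1.5, the remaining member, had 0 reads in all 8 libraries. The median log2 fold change of the 39 was -7.58, beside 0.07 for all genes tested, and adjusted p-values ran from 1.17e-10 for PSBX to 1.04e-06 for LHCB2.2. The 4 root values lay below the 4 shoot values for 39 of 39 members, against 30.1% of genes tested. The mean root level was under 1% of shoot for 35 members, against 2.0% of genes tested. In whole tissue, fewer photosynthetic cells and less RNA per cell cannot be told apart. Members spanned 204 to 20791 FPKM in shoot and 0.274 to 88.7 in root, and the residual level spanned 0.0102% to 1.60%. Across these 39 genes, log2 levels in shoot and root were correlated with a Pearson's r of 0.538 (Spearman's rho 0.574), a description over genes that share libraries.

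**Figure D1:**
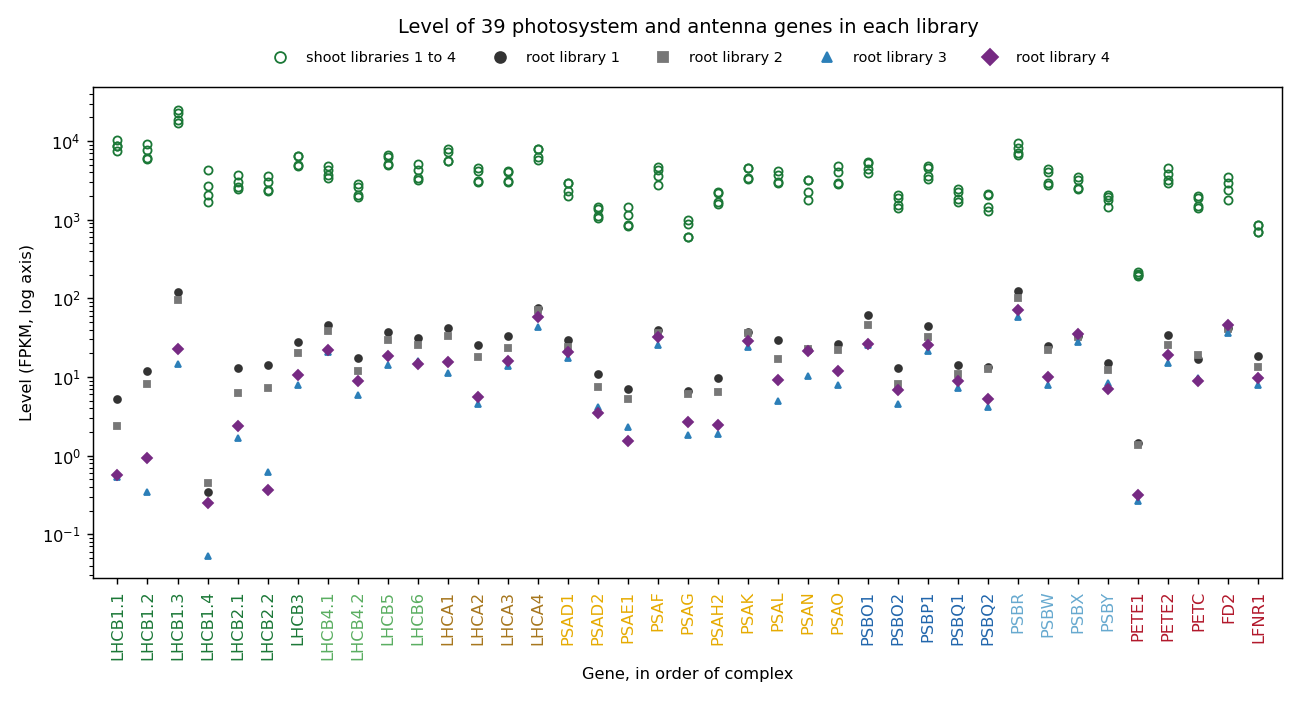
Level of the 39 members with reads, in FPKM on a log axis, in each of the 4 shoot (open circles) and 4 root libraries (filled symbols), with gene names coloured by complex. Every root value lies below every shoot value of the same gene, and the root values of LHCB2.2 and LHCB1.2 are spread most widely.

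The LHCII trimer genes had low residual levels, the lowest being those of LHCB1.4, LHCB1.1, LHCB1.2, LHCB2.1 and LHCB2.2. LHCB1.3 (AT1G29930), the most abundant member in shoot, was measured at 17075, 22675, 18280 and 25133 FPKM in shoot libraries 1 to 4 and at 119, 95.8, 14.8 and 22.9 in root libraries 1 to 4. The residual level was 0.303% ± 0.250 (SD, n = 4), with root libraries 1 and 2 well above 3 and 4 (log2 fold change -8.83 with SE 0.58, adjusted p = 1.88e-07). LHCB1.1 (AT1G29920) stood at 8554, 10237, 7500 and 8763 FPKM in shoot and at 5.31, 2.37, 0.536 and 0.565 in root. Its shoot mean was 3993 times its root mean (log2 fold change -12.04 with SE 0.47, adjusted p = 3.38e-09). Its root libraries split in the same way. LHCB1.2 (AT1G29910) stood at 5906 to 9258 FPKM in shoot and at 12.03, 8.05, 0.345 and 0.944 in root (residual level 0.0736% ± 0.0781). The lowest residual of any member was that of LHCB1.4 (AT2G34430), with 1702, 2719, 2063 and 4232 FPKM in shoot and 0.341, 0.449, 0.0537 and 0.251 in root. That is 0.0102% ± 0.0063 of shoot, resting on 19 root reads in all (log2 fold change -11.70, SE 0.26, adjusted p = 1.28e-10). LHCB1.4 also varied most among shoot libraries, with a coefficient of variation of 41.7% against a median of 18.1% over the 39 members.

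LHCB1.3 made up 52.6% ± 1.01 of the summed LHCB1 FPKM in shoot and 90.9% ± 3.15 in root. LHCB1.1 went from 22.5% ± 3.05 to 2.95% ± 0.824 of that sum, LHCB1.2 from 18.3% ± 0.838 to 5.60% ± 3.10 and LHCB1.4 from 6.60% ± 1.63 to 0.508% ± 0.349. The LHCB1.3 to LHCB1.1 ratio is tested among the paralogue pairs. LHCB2.1 (AT2G05100) stood at 2964 ± 569 FPKM in shoot and at 12.9, 6.35, 1.65 and 2.40 in root. LHCB2.2 (AT2G05070), 93.0% identical to it in coding sequence, stood at 2831 ± 580 FPKM in shoot and at 14.4, 7.29, 0.616 and 0.361 in root. The root libraries of LHCB2.2 differed 39.9-fold from lowest to highest, the widest range of any member. LHCB3 (AT5G54270), the third kind of trimer protein, stood at 5695 ± 898 FPKM in shoot and at 16.7 ± 9.15 in root (residual level 0.293% ± 0.161).

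LHCB1.5 (AT2G34420) could not be compared between tissues. It had 0 reads in all 8 libraries, while the other copies averaged 2679 to 20791 FPKM in shoot. In the deposited annotation its whole span, 1045 of 1045 bases, is covered on the opposite strand by the non-coding gene AT2G08665 (chromosome 2, 14522522 to 14523568), which also had 0 reads. Of 529 protein-coding genes that lie wholly within the span of another gene, 82.8% had 0 reads in every library, against 14.0% of the other 27099. Reads in an overlap cannot be assigned to 1 strand when libraries do not mark strand. The part of the overlap in the 0 reads of LHCB1.5 was not tested, and its transcript level is not given here. Altogether 14 of the 40 members overlap another gene of the table. The overlap covers 61.4% of PSAG (by AT1G55673), 33.4% of PSAE1 (by AT4G28755), 25.2% of LHCB6 (by AT1G05207) and 19.98% of PSAH2 (by ROPGEF11). These partners of PSAG and PSAE1 (AT4G28750, chromosome 4, 14202758 to 14204061) had 0 reads, that of LHCB6 (AT1G15820) had 106 in all and that of PSAH2 (AT1G52230, chromosome 1, 19454798 to 19455668) had 308. A further partner of LHCB6, AT1G15810, covers 7.26% of it and had 3034 reads. A further partner of PSAE1, AT4G28740, covers 0.69% of it and had 1225 reads.

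The minor PSII antennae had higher residual levels than any LHCII trimer gene. LHCB4.1 (AT5G01530, chromosome 5, 208866 to 210548), which encodes CP29, stood at 3414, 4265, 3719 and 4796 FPKM in shoot and at 45.7, 38.7, 21.1 and 22.0 in root. Its residual level was 0.788% ± 0.303, the highest of the LHCB genes among the members (log2 fold change -7.03, SE 0.24). LHCB4.2 (AT3G08940), a second CP29 gene, averaged 2361 ± 426 FPKM in shoot and, in root, 11.1 ± 4.96 (residual level 0.470% ± 0.210). LHCB5 (AT4G10340), which encodes CP26, stood at 5757 ± 888 and 24.9 ± 10.3 FPKM, and LHCB6, for CP24, stood at 3972 ± 857 and 21.8 ± 7.90. Their residual levels were 0.433% ± 0.179 and 0.548% ± 0.199, within each other's spread. In the PSI antenna, LHCA4 had a higher residual level than LHCA1 to LHCA3 in each root library, though its range over libraries overlapped theirs. LHCA4 (AT3G47470, chromosome 3, 17493343 to 17495033) stood at 6245, 7916, 5798 and 7923 FPKM in shoot and at 74.7, 71.6, 43.0 and 58.1 in root (residual level 0.887% ± 0.208). LHCA1 (AT3G54890), its partner in one of the antenna dimers, stood at 6537 ± 1169 FPKM in shoot and at 42.0, 33.5, 11.2 and 15.6 in root (0.391% ± 0.223). In shoot LHCA1 and LHCA4 were within each other's spread, while in root every value of LHCA4 was above every value of LHCA1. LHCA2 (AT3G61470) stood at 3713 ± 777 and 13.4 ± 10.2 FPKM (residual level 0.362% ± 0.275), and LHCA3 (AT1G61520) at 3579 ± 599 and 21.6 ± 8.74 (0.603% ± 0.244).

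The 10 PSI subunit members had residual levels between 0.266% and 0.910%. PSAD, PSAE and PSAF lie on the ferredoxin or plastocyanin side of PSI and help it dock these carriers. PSAD1 (AT4G02770, chromosome 4, 1229031 to 1230164) stood at 1995, 2958, 2300 and 2898 FPKM in shoot and at 29.8, 24.0, 17.5 and 21.0 in root, the highest residual of these 10 (log2 fold change -6.76, SE 0.18, adjusted p = 2.84e-10). PSAD2 (AT1G03130), its paralogue, stood at 1246 ± 202 and 6.46 ± 3.38 FPKM (residual level 0.518% ± 0.271). PSAF (AT1G31330) stood at 3831 ± 861 and 33.4 ± 6.13 FPKM (0.873% ± 0.160), with 25.4 to 39.8 in the root libraries. PSAE1 stood at 842, 1470, 853 and 1148 FPKM in shoot and at 6.97, 5.28, 2.29 and 1.55 in root (0.373% ± 0.236). The root values of PSAE1 fell into the same high and low pairs of libraries as those of LHCB1. PSAK and PSAG bind the LHCI side of PSI, where PSAK (AT1G30380) stood at 3933 ± 705 and 31.8 ± 6.33 FPKM (0.808% ± 0.161) and PSAG (AT1G55670) at 763 ± 192 and 4.33 ± 2.47 (0.567% ± 0.323). PSAH2, PSAL and PSAO lie where mobile LHCII docks. PSAH2 had the lowest residual of the 10, with 1926 ± 348 FPKM in shoot and 9.66, 6.48, 1.91 and 2.47 in root (0.266% ± 0.189). PSAL (AT4G12800) stood at 3450 ± 567 and 15.2 ± 11.0 FPKM (0.441% ± 0.318), and PSAO (AT1G08380) at 3665 ± 964 and 16.9 ± 8.43 (0.461% ± 0.230). PSAN (AT5G64040), a lumenal subunit, stood at 2596 ± 703 FPKM in shoot and at 21.9, 22.7, 10.2 and 21.7 in root, where library 3 alone was low (0.737% ± 0.229).

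The 5 member genes of oxygen-evolving proteins had residual levels between 0.478% (PSBO2) and 0.8293% (PSBO1). PSBO1 (AT5G66570, chromosome 5, 26568572 to 26570461), the main manganese-stabilising protein, stood at 3956, 5451, 4427 and 5320 FPKM in shoot and at 60.8, 46.3, 25.3 and 26.4 in root (residual level 0.8293% ± 0.357). PSBO2 (AT3G50820) stood at 1707 ± 294 and 8.16 ± 3.64 FPKM (0.478% ± 0.213). PSBP1 (AT1G06680) stood at 4060 ± 737 and 30.9 ± 10.5 FPKM (0.760% ± 0.258). PSBQ1 (AT4G21280) stood at 2038 ± 362 and 10.3 ± 3.05 FPKM (0.507% ± 0.149), and PSBQ2 (AT4G05180) at 1724 ± 410 and 8.94 ± 4.85 (0.519% ± 0.281), within each other's spread. Among the 4 small PSII subunit members, PSBX and PSBR (AT1G79040) had the highest residual levels. PSBX (AT2G06520, chromosome 2, 2587729 to 2588448), a single-helix protein, stood at 2466, 3524, 2507 and 3218 FPKM in shoot and at 33.7, 32.6, 28.0 and 35.5 in root. Its root libraries were almost level, with a coefficient of variation of 9.89% against a median of 44.6% over members, and its residual level was 1.11% ± 0.110 (log2 fold change -6.46, SE 0.14, adjusted p = 1.17e-10). PSBR stood at 7785 ± 1230 FPKM in shoot and at 126, 101, 58.1 and 70.4 in root, the highest mean root FPKM of any member (1.14% ± 0.391). PSBW (AT2G30570) stood at 3547 ± 824 and 16.3 ± 8.54 FPKM (0.459% ± 0.241) and PSBY (AT1G67740) at 1808 ± 270 and 10.7 ± 3.65 (0.590% ± 0.202).

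The highest residual levels of the 39 were those of 2 electron carriers, FD2 and LFNR1. FD2 (AT1G60950, chromosome 1, 22444307 to 22445291), the major leaf ferredoxin, stood at 1760, 3460, 2357 and 2895 FPKM in shoot and at 42.4, 40.9, 36.2 and 45.5 in root. It was the member whose root libraries varied least, with a coefficient of variation of 9.45%, and its residual level was 1.58% ± 0.149 (log2 fold change -5.93, SE 0.19, adjusted p = 8.30e-10). LFNR1 (AT5G66190, chromosome 5, 26450964 to 26453199), a leaf ferredoxin-NADP reductase, stood at 694, 868, 698 and 848 FPKM in shoot and at 18.6, 13.6, 7.93 and 9.73 in root (1.60% ± 0.606). Their residual levels differed by less than the spread between root libraries. PETC (AT4G03280), the Rieske protein of the cytochrome complex, stood at 1702 ± 297 and 13.7 ± 5.00 FPKM (0.802% ± 0.294). PETE2 (AT1G20340), the major plastocyanin, stood at 3626 ± 730 and 23.4 ± 8.51 FPKM (0.646% ± 0.235). PETE1 (AT1G76100, chromosome 1, 28553883 to 28554930), the minor plastocyanin, was the least abundant member with reads in shoot, at 206, 199, 191 and 218 FPKM, and stood at 1.46, 1.37, 0.269 and 0.315 in root. Its residual level was 0.419% ± 0.319, and its coefficient of variation among shoot libraries, 5.47%, was the smallest of the 39.

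Summed by complex, LHCII trimer genes stood at 0.194% of their shoot level in root, the lowest of the 7 groups, and electron carriers at 1.03%, the highest. In root libraries 1 to 4 the LHCII sum was at 0.376%, 0.276%, 0.0508% and 0.0748% of shoot, and the electron carrier sum at 1.27%, 1.13%, 0.774% and 0.935%. The small PSII subunits were at 1.24%, 1.04%, 0.637% and 0.764%. LHCII was lowest and electron carriers were highest in each of the 4 root libraries, with small PSII subunits next to highest. Minor PSII antennae (0.556% over the 4 libraries), PSI antennae (0.589%), PSI subunits (0.637%) and oxygen-evolving proteins (0.684%) lay between and changed order among libraries. As a share of the summed FPKM of the members, LHCII fell from 33.5% ± 0.734 in shoot to 10.6% ± 5.67 in root, with 16.3%, 14.7%, 5.29% and 6.24% in root libraries 1 to 4. Small PSII subunits rose from 10.6% ± 0.542 to 18.9% ± 1.92 and electron carriers from 5.85% ± 0.412 to 11.98% ± 2.22. For these 3 groups the tissues did not overlap, with an exact two-sided permutation p = 0.0286, the smallest that 4 against 4 libraries can give, and an adjusted p = 0.0333 over the 7 groups. PSI subunits (16.4% to 20.1%), oxygen-evolving proteins (9.41% to 12.2%) and PSI antennae (13.7% to 15.2%) also rose at the same exact permutation p, and minor antennae did not pass (10.6% and 11.1%, p = 0.114, adjusted p = 0.114). Shares sum to a fixed total, so a fall of LHCII raises the rest. With the LHCB1 copies left out, root minus shoot was -2.06 points for the share of PSI antennae and -2.32 points for that of minor antennae (adjusted p = 0.0400 for both, exact permutation test). It was -0.39 points for PSI subunits (adjusted p = 0.571) and 0.453 points for oxygen-evolving proteins (adjusted p = 0.400), and these did not pass. What is left of LHCII (-6.77 points), small PSII subunits (6.09) and electron carriers (4.99) passed with the same sign as before.

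**Figure D2:**
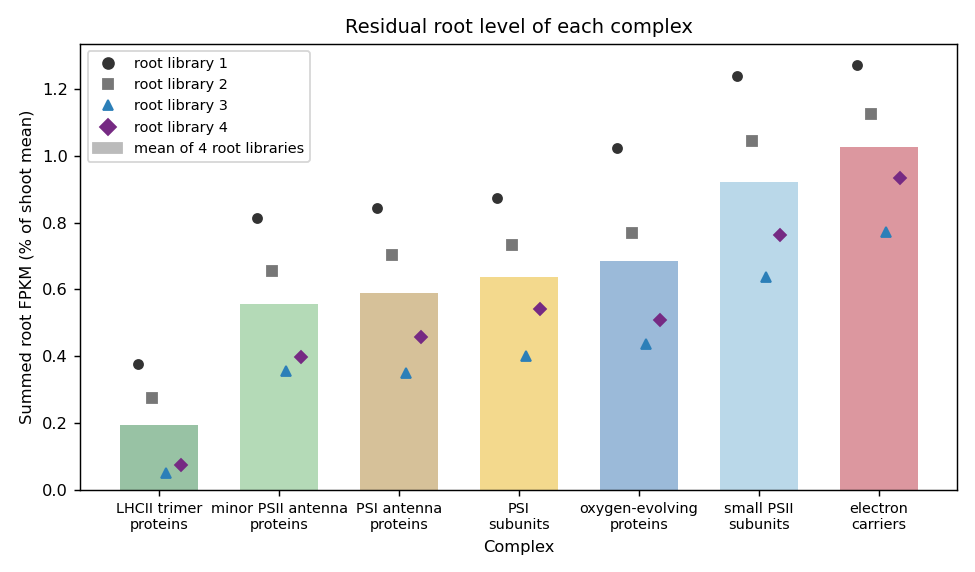
Summed root FPKM of each complex as a percent of its mean shoot sum, on a linear axis from 0, with bars for the mean of the 4 root libraries and symbols for each library. LHCII trimer proteins stand lowest at 0.194% and electron carriers highest at 1.03%, and root libraries 1 and 2 lie above 3 and 4 in every complex.

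The 4 root libraries differed in how much they held of these transcripts. The median residual level of the 39 members was 0.788%, 0.634%, 0.264% and 0.371% in root libraries 1 to 4. Root library 1 had the highest value for 34 of the 39 members, and root library 3 had the lowest for 33. Over members, the highest root library exceeded the lowest by 1.26-fold (FD2) to 39.9-fold (LHCB2.2), with a median of 2.91-fold. The order of members was alike in every root library, with Spearman's rho of 0.919 to 0.967 between residual levels of pairs of libraries over 39 genes, given as a description. The summed level of the shoot markers moved with these libraries, but not every marker did. The summed FPKM of the 10 markers was 11.9, 9.11, 6.59 and 7.10 in root libraries 1 to 4, against 543.5 to 766 in shoot, or 1.83%, 1.396%, 1.01% and 1.09% of the shoot mean. AS1, a leaf regulator that roots also held at 36.4% of its shoot level, made up most of the root sum. Without AS1, left out after its values were seen, the 9 others stood at 0.733%, 0.385%, 0.246% and 0.266% of shoot. CER6, an enzyme of wax synthesis, was at 3.16, 2.29, 1.24 and 1.52 FPKM, most of the 4.66, 2.45, 1.56 and 1.69 of these 9. TMM, at 0.175, 0.0460, 0.115 and 0.135 FPKM, and SPCH, at 0.0294, 0, 0.162 and 0.0379, did not follow that order. FIL, YAB5, FAMA and MUTE, regulators of leaf polarity and stomata, had 0 reads in the 4 root libraries together. For FIL, with 2049 reads in shoot, 0 reads allow a root level of up to 0.0945% of shoot, counting 3 reads over the 4 libraries. The corresponding limits were 0.185% for YAB5, 0.193% for FAMA and 3.25% for MUTE, and all these limits cover counting error only. YAB3, SPCH, TMM and GC1 had 2, 7, 12 and 16 root reads. The part of shoot material in the residual levels was not tested.

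**Figure D3:**
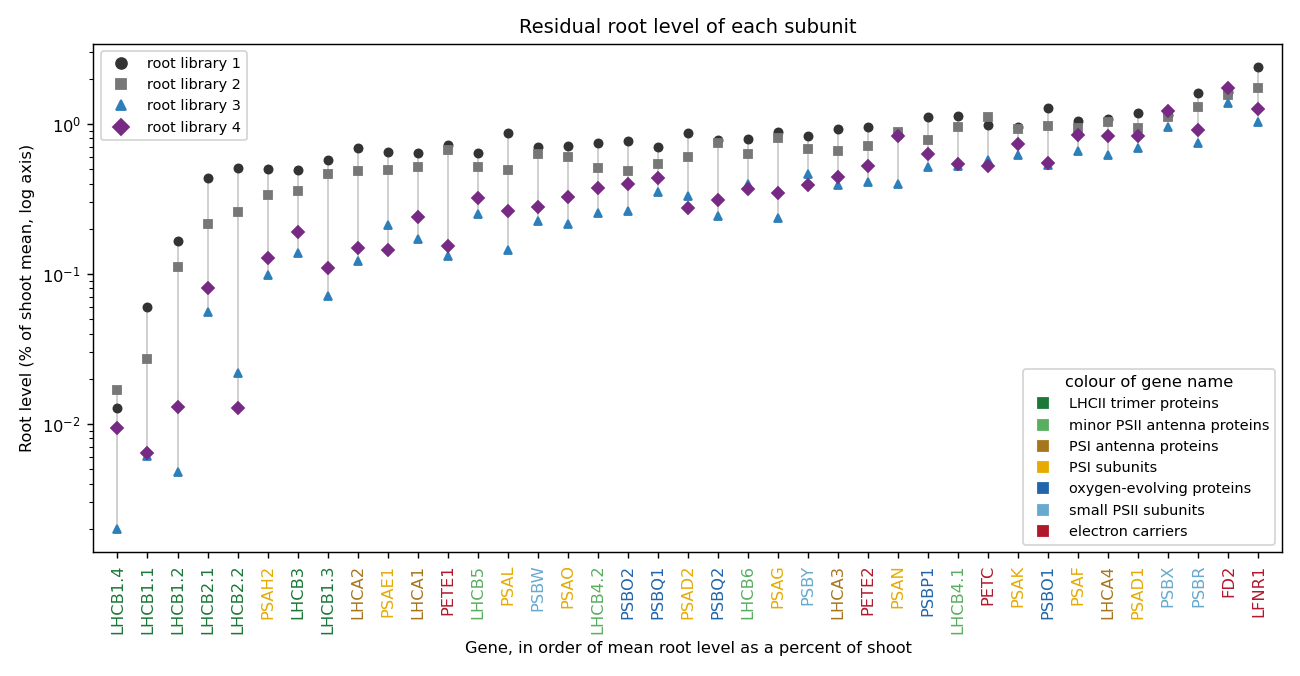
Root FPKM of each member as a percent of its mean shoot FPKM, on a log axis, with a symbol per root library and members in order of their mean. LHCB1.4, LHCB1.1 and LHCB1.2 lie lowest, and PSBX and FD2 at the right have root libraries that lie close together.

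Shoot libraries differed less. The median member stood at 82.1%, 115%, 86.2% and 114% of its shoot mean in shoot libraries 1 to 4, and the highest shoot value of each of the 39 was in library 2 or 4. The members' share of all reads was 13.1%, 16.0%, 13.5% and 16.9% in the same libraries. The authors' scaled library sizes were 0.865, 0.770, 0.858 and 0.803 of the read totals, smaller in libraries 2 and 4.

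Within 8 of 11 pairs of paralogues the balance between the copies differed between the tissues. Of all genes tested, 32.0% were called lower and 37.6% higher in root by limma. Ratios of other gene pairs were not computed, so how often unrelated pairs would differ is not known. A ratio of 2 genes within a library, taken here as the difference of log2(FPKM + 0.5), depends little on scaling between libraries, and each was tested by an exact two-sided permutation test with values adjusted over the 11 pairs. PSAE1 to PSAE2 changed most among PSI subunits. PSAE1 made up 48.2% ± 3.71 of the pair's FPKM in shoot and 15.1% ± 5.36 in root, with 20.5% as its highest root value and 45.1% as its lowest in shoot. Its log2 ratio to PSAE2 was -0.10 ± 0.21 in shoot and -2.39 ± 0.57 in root, a difference of -2.28 (n = 4 and 4, exact permutation p = 0.0286, adjusted p = 0.0393). PSAE2 itself was at 1143 FPKM in shoot and at 21.1 in root, a residual level of 1.84% against 0.373% for PSAE1. PSAH2 moved in the same direction, from 72.3% ± 1.15 of the PSAH pair in shoot to 48.5% ± 4.204 in root (difference of log2 ratios -1.45, adjusted p = 0.0393, exact permutation test). FD2 went from 79.6% ± 5.56 of the FD2 and FD1 sum to 64.9% ± 2.24 (difference -1.13, adjusted p = 0.0393, exact permutation test), while FD1, a second leaf ferredoxin, had a residual level of 3.43%.

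In the other 5 of these 8 pairs the gene named first gained in root. LHCB1.3 went from 70.1% ± 3.19 to 96.9% ± 0.905 of the sum with LHCB1.1 (difference of log2 ratios 3.21). LFNR1 went from 71.1% ± 3.14 to 86.5% ± 3.36 of the leaf reductases (1.08), and PSAD1 from 66.99% ± 1.23 to 79.1% ± 5.46 of the PSAD pair (0.84). LHCB4.1 went from 63.2% ± 1.52 to 74.5% ± 3.13 of the CP29 pair (0.72) and PSBO1 from 73.8% ± 0.681 to 82.9% ± 2.55 of the PSBO pair (0.72). In all 5 the tissues did not overlap and the adjusted p = 0.0393 by the exact permutation test. In these 5 pairs the gene that gained was also the higher one in shoot, whereas PSAE2 was near its partner there and PSAH1 below it. Opposite-strand genes cover 49.0% of the span of PSAH1 and 19.98% of that of PSAH2. They cover 33.4% and a further 0.69% of PSAE1, and 6.09% of PSAE2. The part of these overlaps in the levels within a pair was not tested. The remaining 3 pairs did not pass. PETE1 made up 5.45% ± 1.00 of the plastocyanin sum in shoot and 3.14% ± 1.70 in root, a difference of log2 ratios of -0.08 (exact permutation p = 0.686, adjusted p = 0.754) that was -0.73 with a pseudocount of 0.1 and took the other sign, 0.40, with one of 1 (adjusted p = 0.175 and 0.105, exact permutation tests). PSBQ1 to PSBQ2 differed by 0.06 (exact permutation p = 0.8286, adjusted p = 0.8286). LHCB2.1 to LHCB2.2 differed by 0.52 (exact permutation p = 0.429, adjusted p = 0.524), where root libraries 1 and 2 had log2 ratios of -0.15 and -0.19 and libraries 3 and 4 had 0.95 and 1.75. LHCB1.5 to LHCB1.4 could not be tested because LHCB1.5 was listed at 0.

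**Figure D4:**
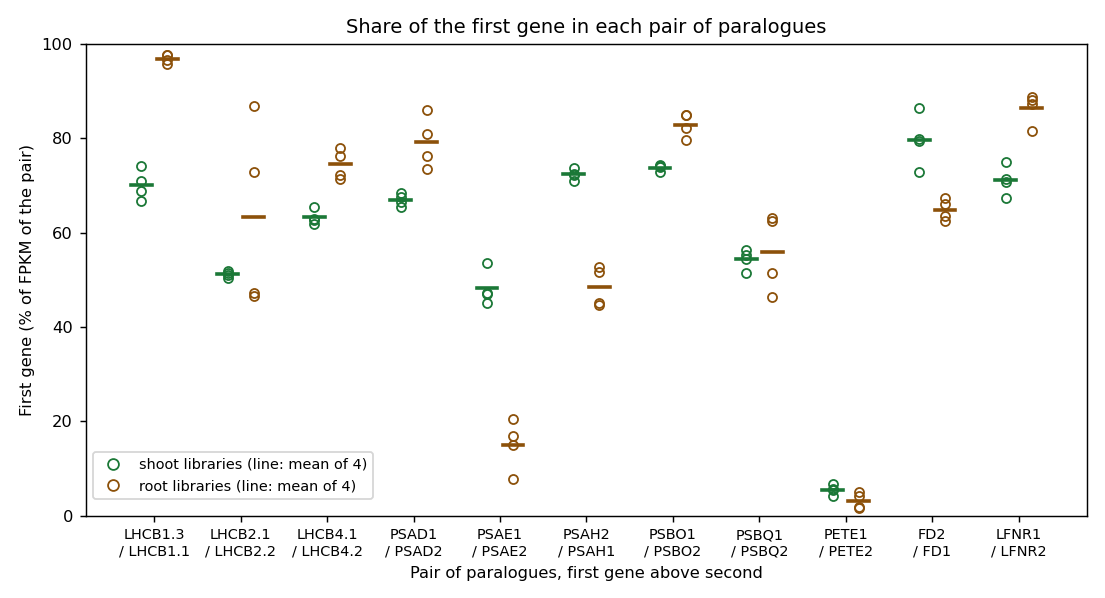
Share of the first gene in the summed FPKM of each pair of paralogues, in percent, with open circles for the 4 shoot (green) and 4 root (brown) libraries and lines for their means. The circles of the tissues do not overlap for 8 pairs, with PSAE1 falling from 48.2% to 15.1% and LHCB1.3 rising from 70.1% to 96.9%, and they overlap for LHCB2, PSBQ and PETE.

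The upstream sequences of members held some light-related elements more often than promoters in general. Windows from 250 bases before to 50 after the annotated start were searched on both strands. The I-box core GATAAG was in 20 of 40 members (50%) against 14.6% of 27419 protein-coding promoters, CCAATC, an element reported for the GLK regulators of greening, in 16 (40%) against 12.3%, and the G-box CACGTG in 11 (27.5%) against 7.67%. The GATA element AGATAG, which can share letters with the I-box, was in 8 members (20% against 13.04%), and TATAAA in 17 (42.5% against 52.2%). The groups differed in which letters they held. The G-box was in 4 of 5 oxygen-evolving genes, in 2 of 4 minor PSII antenna and 2 of 4 small PSII subunit genes, in 1 of 4 PSI antenna and 2 of 10 PSI subunit genes, and in 0 of 8 LHCII trimer genes and 0 of 5 electron carriers. CCAATC was in 3 of 4 minor PSII antenna and 3 of 4 PSI antenna genes, 3 of 5 oxygen-evolving genes, 4 of 8 LHCII genes, 2 of 5 electron carriers, 1 of 10 PSI subunit genes and 0 of 4 small PSII subunit genes. The I-box was in 4 of 5 electron carriers, 3 of 4 minor PSII antenna, 7 of 10 PSI subunit, 2 of 4 PSI antenna, 2 of 5 oxygen-evolving, 1 of 4 small PSII subunit and 1 of 8 LHCII genes. Members were not sampled from all genes, so these shares are descriptions, and a match is not a binding site. The 250 bases before the start of 5 members are shown as examples of each element, with G-box, I-box and CCAATC letters in capitals on either strand.
LHCB1.3: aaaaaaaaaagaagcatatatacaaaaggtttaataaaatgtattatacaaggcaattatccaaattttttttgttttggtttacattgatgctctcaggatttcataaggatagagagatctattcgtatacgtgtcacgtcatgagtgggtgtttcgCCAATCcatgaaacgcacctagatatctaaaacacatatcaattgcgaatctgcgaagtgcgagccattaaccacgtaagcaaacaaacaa
LHCB2.1: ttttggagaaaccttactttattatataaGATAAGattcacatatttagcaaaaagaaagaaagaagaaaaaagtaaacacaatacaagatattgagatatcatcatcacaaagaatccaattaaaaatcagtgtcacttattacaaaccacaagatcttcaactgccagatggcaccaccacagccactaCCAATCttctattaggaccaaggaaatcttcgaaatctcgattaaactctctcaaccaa
PSAH2: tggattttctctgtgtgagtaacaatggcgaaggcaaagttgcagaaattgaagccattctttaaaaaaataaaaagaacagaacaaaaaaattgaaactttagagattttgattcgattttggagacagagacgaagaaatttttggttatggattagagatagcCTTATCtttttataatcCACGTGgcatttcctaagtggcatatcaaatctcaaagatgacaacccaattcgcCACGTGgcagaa
PSBQ2: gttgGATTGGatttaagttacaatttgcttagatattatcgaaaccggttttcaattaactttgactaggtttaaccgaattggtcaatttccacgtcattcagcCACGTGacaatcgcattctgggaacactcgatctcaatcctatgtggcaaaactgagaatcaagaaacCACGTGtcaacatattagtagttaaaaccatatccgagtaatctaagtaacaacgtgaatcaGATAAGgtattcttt
PETE2: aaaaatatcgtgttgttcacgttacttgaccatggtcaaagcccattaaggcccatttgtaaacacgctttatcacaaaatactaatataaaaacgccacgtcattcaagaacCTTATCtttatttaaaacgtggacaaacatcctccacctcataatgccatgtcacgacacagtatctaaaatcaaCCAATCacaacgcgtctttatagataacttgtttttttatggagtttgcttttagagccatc
They are from the RefSeq genome TAIR10.1, 5′ to 3′ on the gene's strand, at LHCB1.3 chr1:10477635-10477884 (plus strand), LHCB2.1 chr2:1824481-1824730 (minus strand), PSAH2 chr1:19454548-19454797 (plus strand), PSBQ2 chr4:2673244-2673493 (minus strand), PETE2 chr1:7043393-7043642 (minus strand). The CCAATC of LHCB1.3 starts 91 bases before the annotated start, and those of LHCB2.1 and PETE2 start 59 and 62 bases before it. PSAH2 holds G-boxes starting 67 and 12 bases before the start and an I-box on the opposite strand starting 84 bases before it. PSBQ2 holds G-boxes starting 145 and 77 bases before the start. The annotated start is the outermost one of a gene, and the start used in these tissues was not measured.

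Other genes of the same machinery were also lower in root, but less uniformly. Of 14 further antenna and photosystem genes, 14 were lower in root (median log2 fold change -6.50). On the log2(FPKM + 0.5) scale the range ran from LHCB2.3, another LHCII gene, at 857 FPKM in shoot and at 1.88 in root (-8.45, SE 0.19) to LHCB7, a rare antenna protein, at 14.7 and 3.43 FPKM (-1.96, SE 0.15). LHCA6, a rare PSI antenna protein, was at 85.0 FPKM in shoot with 3433 reads and had 2 reads in root, against 43313 and 147 reads for LHCB2.3. Its log2 fold change of -7.32 is limited by the pseudocount of 0.5, so it is not the lowest on this scale. LHCA6 was named after its values were seen. LHCA6 and PSBP2 were under 0.5 FPKM in every root library and could pass the filter on low values only through shoot. Of 13 further genes of thylakoid electron transport and the plastid ATP synthase, 13 were lower in root (median -4.80). They ran from PETM, a small cytochrome complex subunit, at 1141 and 7.40 FPKM (-7.21, SE 0.25) to PGRL1B, a protein of cyclic electron flow, at 22.9 and 7.54 FPKM (-1.54, SE 0.11). These medians lie closer to 0 than the -7.58 of the members, a description without a test. All 27 of these calls were by limma at an adjusted p under 0.05, by which 32.0% of genes tested were called lower in root.

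Of 4 genes of the ferredoxin system of non-photosynthetic plastids, 2 were higher in root, 1 did not pass and 1 had no reads. FD3, the root-type ferredoxin, stood at 47.3, 46.8, 50.1 and 40.1 FPKM in shoot and at 159, 184, 195 and 244 in root (log2 fold change 2.06, SE 0.13). RFNR2, a root-type reductase, stood at 11.6 to 14.9 FPKM in shoot and at 69.8 to 109 in root (2.66, SE 0.15). Both rose and the tissues did not overlap, while 37.6% of genes tested were called higher in root. RFNR1 stood at 30.9 and 25.0 FPKM and did not pass (-0.29, adjusted p = 0.0599), and FD4 had 0 reads. In root FD3 was thus above FD2 in every library, whereas in shoot FD2 was above FD3 in every library, with both given per length in FPKM.

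Of 12 plastid-encoded photosystem and cytochrome genes, 11 were lower in root and psaC did not pass (median log2 fold change -2.89). Of all genes tested, 32.0% were called lower in root. psbD, psbB, psaA, petA and petD were under 0.5 FPKM in every root library. These could pass the filter on low values only through shoot, where they are high. psbA, which encodes the D1 protein, stood at 21.9, 19.6, 41.4 and 48.4 FPKM in shoot and at 1.75, 1.82, 1.06 and 1.79 in root (-3.90, SE 0.28), and psaC at 0 to 4.42 in shoot and at 0 to 0.859 in root (-1.44, adjusted p = 0.0636). The libraries were made by poly-T selection, which plastid messenger RNA mostly escapes, so these levels are not measures of plastid transcript abundance. Of 5 regulators, 4 were lower in root, and HY5 was higher, where 32.0% of genes tested were called lower and 37.6% higher. GLK1, which activates nuclear photosynthesis genes, stood at 38.5, 39.5, 38.2 and 31.2 FPKM in shoot and at 0.407, 0.195, 0.203 and 0.191 in root (-5.64, SE 0.14). HY5, a light-signalling factor, stood at 3.85, 4.78, 4.14 and 2.50 FPKM in shoot and at 13.5, 13.2, 14.5 and 13.4 in root (1.74, SE 0.17). GLK2 stood at 68.5 and 6.05 FPKM, so GLK1 had a residual level of 0.675% and GLK2 one of 8.84%. The root level of GLK1 rests on 24 reads in all. GLK2 has neither the largest nor the smallest change of this list and was named besides those. GLK1 and CGA1 were under 0.5 FPKM in every root library and could pass the filter on low values only through shoot.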

How the data were processed

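Messenger RNA of 4 shoot and 4 root samples was sequenced as pairs of 150-base reads after poly-T selection by steps that do not mark strand, per the labels' protocols. The submitters' processing notes name the TAIR10 build, HISAT2 2.0.5 and featureCounts 1.5.0-p3. They do not state the strand setting, the treatment of shared reads or the annotation release. Although its name says counts, the deposited table holds FPKM made by the authors. Values multiplied by gene length fall on whole steps, 1 step size to a library, within 1.37e-09 reads, which gave back the whole reads. By these steps the authors' library sizes came to 0.770 to 0.865 of the read total in shoot and 1.18 to 1.25 in root, by a method not stated.

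Genes with at least 0.5 FPKM in at least 4 of 8 libraries were compared on log2(FPKM + 0.5) with a trended prior (limma 3.58.1, R 4.3.3) and Benjamini-Hochberg adjustment, calling an adjusted p under 0.05. Ratios and shares were tested by exact permutation with scipy 1.17.1. At 1 kb, 3 reads in 1 library are 0.192 to 0.375 FPKM. Every pair of libraries of a tissue differed beyond counting noise, with a chi-square of 6.94 to 21.0 per gene. All 40 members are named, and from other lists the largest and smallest change and genes higher in root. Named besides these are LHCA6, GLK2, FD4, all markers, partners in pairs and genes under the filter value in root. The members and lists were chosen with earlier results of these data known. Symbols are common ones: the deposited names are LHB1B1 for LHCB1.4, LHB1B2 for LHCB1.5 and LHCB1.1 for LHCB1.2, while the table lists PETE2 as DRT112, LHCB2.3 as LHCB2.4, GLK1 as GPRI1, FIL as YAB1, GC1 as GASA9 and CER6 as CUT1. 32532 of 32548 nuclear genes have the same coordinates in RefSeq TAIR10.1.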

Additional observations from a re-analysis of the deposited data

Results flagged for a closer look

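Dixon's ratio was computed for 114 sets of 4 libraries (members, pair ratios and complex shares in each tissue), of which about 5.7 would be marked by chance and 2 were. PSAN stood at 10.2 FPKM in root library 3, far below the 21.7 to 22.7 of the other root libraries. The log2 ratio of LFNR1 to LFNR2 was 1.98 in root library 2, below the 2.49 to 2.58 of the others.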

How the results depend on the processing

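Over 16 alternatives (other pseudocounts and filters, library totals, limma-voom on recovered reads, the replicate number as a block, each library left out, root libraries 3 and 4 alone), 39 members were called lower in root every time, with log2 fold changes of -13.31 to -5.38 and a largest adjusted p = 7.95e-06. With 1 library left out, the members' median log2 fold change ran from -7.74 to -7.37, the residual level, as the mean over root libraries of the members' median, from 0.423% to 0.598% (0.514% with all) and genes called from 13213 to 13909 (14130 with all). Limma-voom on the recovered reads called 14117 genes. Library totals as the scaling moved the median of all genes from 0.07 to 0.58, the share of calls higher in root from 54.0% to 75.2% and the residual level to 0.767%. PETE1 to PETE2 took the other sign with a pseudocount of 1 (0.40, adjusted p = 0.105), was -0.73 with one of 0.1 (adjusted p = 0.175), and ran from -0.22 to 0.04 with 1 library left out. Complex shares depended on what they were shares of. Without the LHCB1 copies, root minus shoot was -2.06 points for PSI antennae, -2.32 for minor antennae, -0.39 for PSI subunits and 0.453 for oxygen-evolving proteins, and with shares of reads minor antennae passed (1.09 points, adjusted p = 0.0286). The cause was not tested. The LHCII share differed by -24.8 to -21.1 points with 1 library left out, and 3 against 4 libraries cannot give an exact p under 0.0571. With the replicate block 14104 genes and 39 members were called. Same-numbered libraries correlated by 0.0152 to 0.071 in their deviations, and differently numbered ones by -0.0617 to 0.0263. These values are small, and whether the numbers pair the samples cannot be told from them. Root levels of LHCB1.4 rest on 19 reads, which limits its residual level.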
